A study of Mus musculus with 114 samples.

Results

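The 38 genes described here encode proteins of the postsynaptic density and synaptic adhesion molecules. They were chosen by symbol: a row of the count table counted as a member when its Ensembl gene identifier mapped to one of the listed symbols in the GENCODE vM21 names. All 38 symbols were found, each with 1 identifier, among 13101 genes in the table. Every member passed the filter on low counts in every fit.

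The libraries came from the prefrontal cortex of Ribo-tag mice, in which ribosomes of a chosen cell type carry a haemagglutinin tag and are pulled down with the RNA bound to them. Per the labels, all libraries share this genotype and the antibody pull-down, and no treatment is named. The Cre driver, the animals' ages and whether each library came from a separate animal are not stated in the labels used, so p values measure only the spread between libraries. A library was made at zeitgeber time (ZT, hours after lights on) 2, 6, 10, 14, 18 or 22, from a female or a male. The titles start with PV or C. There were 55 PV-titled libraries, 8 to 10 at each time, from 28 females and 27 males. There were 58 C-titled libraries, 9 or 10 at each time, from 29 females and 29 males. The cell type entry of the labels names parvalbumin interneurons for every C-titled library and pyramidal neurons for every PV-titled one, opposite to the titles, and libraries are grouped here by title.

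Markers of parvalbumin interneurons were higher in PV-titled libraries for 6 of 6 genes, with summed levels of 199.5 to 749.9 CPM (reads of a gene, scaled to a common library size) against 65.01 to 137.7 in C-titled libraries. General GABAergic markers were also higher in PV-titled libraries for 5 of 5, with medians of 1106 and 77.19 CPM. Pyramidal markers were higher in C-titled libraries for 7 of 7, at 1913 to 4086 CPM against 697 to 1983. By these markers the titles fit and the cell type entries do not. Markers of astrocytes (6 of 6), the oligodendrocyte lineage (5 of 5), microglia (6 of 6) and vessels (6 of 6) were also higher in PV-titled libraries. Summed astrocyte markers were 786.9 to 1372 CPM in PV-titled and 217.5 to 894 CPM in C-titled libraries, oligodendrocyte markers had medians of 409.3 and 158.6, microglial markers 167.2 and 57.28, and vessel markers 129.6 and 21.01. Among markers of other interneurons 4 of 6 were higher in PV-titled libraries, yet their sum was higher in C-titled ones, with medians of 517.1 and 1229 CPM. No listed marker was at 0 in a PV-titled library. In C-titled libraries Syt2 was at 0 in 4, Slc32a1 in 2 and Cox6a2 in 1. The part of these other cells in the differences between titles below was not tested, and in pooled RNA fewer cells of a type and less RNA per cell cannot be told apart.

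Reads assigned to genes came to 19.1 to 39.46 M in a PV-titled library and 24.56 to 44.08 M in a C-titled one, so each member rested on many reads in every library. Library numbers in the titles fall into a lower and a higher range, called the first and second library-number range below, each with all times, both titles and both sexes. In 8 libraries the correlation with other libraries of the same title was more than 6 median absolute deviations below the median. These libraries, 3 PV-titled at ZT10, ZT14 and ZT22 and 5 C-titled at ZT2 and ZT6, are said to stand apart. Results that rest on them are given with and without them.

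At an excitatory synapse the postsynaptic density holds receptors opposite the release site. Membrane-associated guanylate kinases of the Dlg family bind receptors and adhesion proteins, Dlgap proteins link them to Shank proteins, and Shank proteins bind Homer and, through other partners, the actin of the spine. Adhesion across the cleft runs from presynaptic neurexins to postsynaptic neuroligins and leucine-rich repeat proteins, while gephyrin is the scaffold of inhibitory synapses. Pyramidal cells carry most of their excitatory synapses on spines, and parvalbumin interneurons of the cortex receive them mostly on the dendritic shaft.

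Members fell on both sides of the comparison between titles, with the Shank family, Sorbs2 and Kalrn toward PV-titled libraries and neurogranin, Camk2a, Lrrtm1 and Baiap2 toward C-titled ones. By edgeR's quasi-likelihood test with Benjamini-Hochberg adjustment over all genes, 7 of 38 members (18.4%) were higher in PV-titled libraries, where 44.3% of all 13053 genes tested were. In C-titled libraries 23 members (60.5%) were higher, against 43.2% of all genes, and 8 members did not pass the threshold of 0.05. The median log2 difference, PV-titled minus C-titled, was -0.21 over the members and 0.01 over all genes. When libraries were scaled by their totals alone, which moves the median of all genes to 0.21, 12 members were higher in PV-titled libraries and 14 in C-titled ones, against 53.4% and 33.1% of all genes. The 5 members that then joined the PV side were Dlg1, Homer3, Camk2g, Iqsec1 and Dlgap4. A difference of at least 2-fold passed its own test for 3 members toward PV (18% of all genes) and 2 toward C (4.54%).

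**Figure D1:**
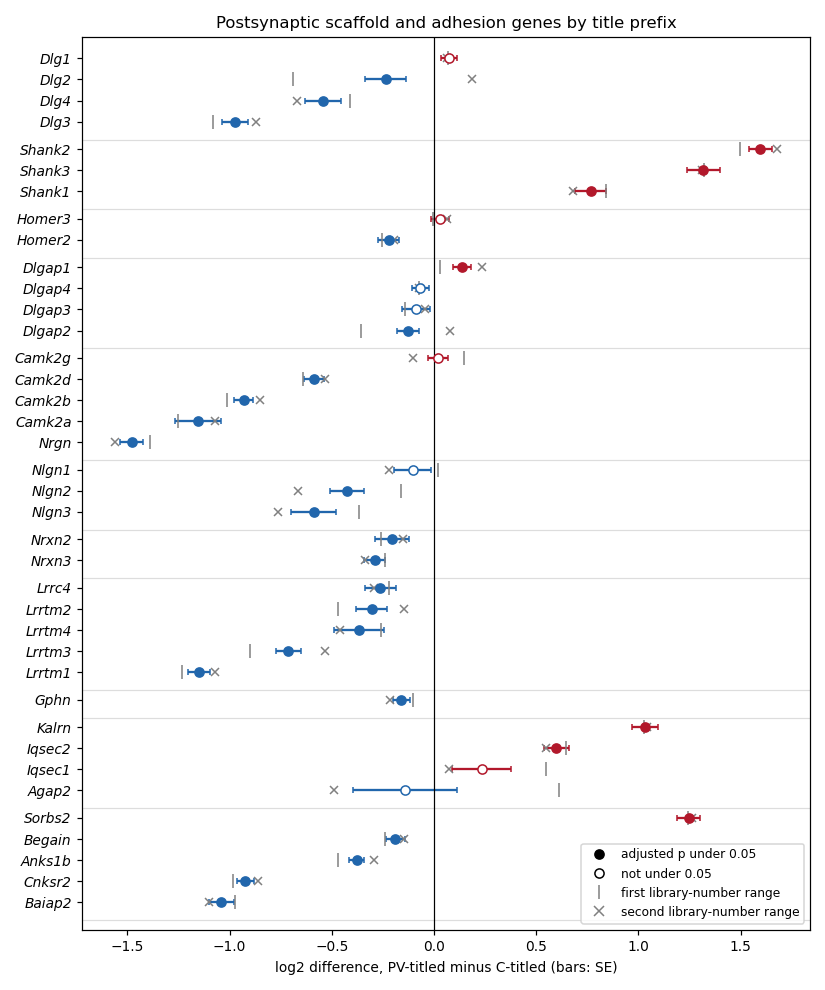
Log2 difference in level between PV-titled (n = 55) and C-titled (n = 58) libraries for each of the 38 members, grouped by role. Circles give the edgeR estimate with its SE, filled where the adjusted p is under 0.05, and grey marks give the estimate within each library-number range. The Shank genes, Sorbs2 and Kalrn lie right of 0, and Nrgn, at -1.48, lies farthest to the left.

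All 3 Shank genes, which encode the master scaffolds of the deeper postsynaptic density, were higher in PV-titled libraries. Shank2 (ENSMUSG00000037541, GRCm38 chr7:144001928-144424494, plus strand) ranged from 263.5 to 815 CPM with a median of 504.8 in PV-titled libraries, and from 93.95 to 269.01 with a median of 170.7 in C-titled ones. The means were 515.4 ± 147.98 CPM (SD, n = 55) and 168.4 ± 37.5 (SD, n = 58). Every PV-titled library was above the C-titled median, and the ranges met only at their edges. The fitted difference was 1.60 ± 0.06 (SE, log2; adjusted p = 6.6e-50), or 3.02-fold.

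Shank3 ranged from 14.2 to 179.6 CPM with a median of 90.59 in PV-titled libraries, and from 12.63 to 84.41 with a median of 33.61 in C-titled libraries. Its difference was 1.32 ± 0.08 (SE, log2; adjusted p = 1.5e-30), and the C-titled median was exceeded in 54 of 55 PV-titled libraries. Shank1 spread more widely within each title, from 202.9 to 1474 CPM (median 803.7) in PV-titled and from 195.7 to 1485 (median 423.8) in C-titled libraries. The ranges of Shank1 overlapped almost wholly, yet 51 of 55 PV-titled libraries exceeded the C-titled median, and the difference was 0.77 ± 0.08 (SE, log2; adjusted p = 4.3e-17). Per kilobase of exon the order within the family was Shank1, Shank2, Shank3 in both titles, with median CPM per kilobase of 76.45, 46.88 and 9.859 in PV-titled and 40.3, 15.86 and 3.657 in C-titled libraries.

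Sorbs2, an actin-linked adaptor also called ArgBP2 (ENSMUSG00000031626, GRCm38 chr8:45507788-45827906, plus strand), had the largest difference of the adaptors. It ranged from 296.1 to 967.7 CPM with a median of 460 in PV-titled libraries and from 150.2 to 542.7 with a median of 193.7 in C-titled ones. All 55 PV-titled libraries were above the C-titled median, 1 C-titled library was above the PV-titled median, and the difference was 1.25 ± 0.06 (SE, log2; adjusted p = 8.2e-42). An antisense gene, Sorbs2os, shares 3.77% of its exon bases, and reads from the pair could not be told apart if counting ignored strand.

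Kalrn encodes kalirin, an exchange factor for small GTPases in spines. It ranged from 121.2 to 425.3 CPM with a median of 276.8 in PV-titled libraries and from 85.37 to 409.7 with a median of 125.9 in C-titled ones, a difference of 1.03 ± 0.06 (SE, log2; adjusted p = 1.5e-30). Of the other regulators of small GTPases, Iqsec2, an exchange factor for ARF proteins, ranged from 43.18 to 150.4 CPM (median 80.7) in PV-titled and from 37.8 to 110.6 (median 53.28) in C-titled libraries. The difference for Iqsec2 was 0.60 ± 0.06 (SE, log2; adjusted p = 1.2e-16). Its paralog Iqsec1 had 0.23 ± 0.14 (adjusted p = 0.12), and 0.38 (adjusted p = 2.2e-07) once the libraries that stand apart were left out. Agap2, an ARF GTPase-activating protein also known as PIKE, had -0.14 ± 0.25 (adjusted p = 0.59), with 0.25 without those libraries.

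**Figure D2:**
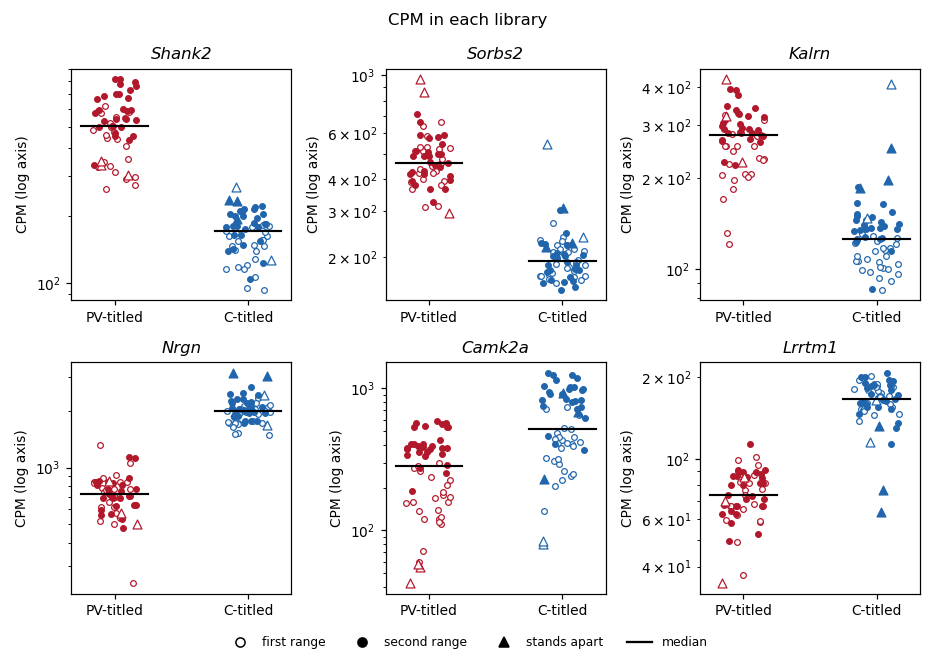
Level of 6 members in each library, in CPM on a log axis, by title (PV-titled n = 55, C-titled n = 58). Open and filled points are the first and second library-number range, triangles are libraries that stand apart, and lines are medians. Shank2, Sorbs2 and Kalrn are higher in PV-titled libraries, Nrgn does not overlap between titles, and Camk2a has a higher median in the second range of each title.

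On the C side neurogranin led. Nrgn, a calmodulin-binding protein of dendrites and spines (ENSMUSG00000053310, GRCm38 chr9:37544492-37552904, minus strand), ranged from 243.98 to 1316 CPM with a median of 727.9 in PV-titled libraries and from 1478 to 3174 with a median of 1994 in C-titled libraries. It was the 1 member whose libraries did not overlap between titles, which held for 2.10% of all genes in this direction and for 2.41% in the other. The difference was -1.48 ± 0.06 (SE, log2; adjusted p = 7.2e-49).

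Of the subunits of calcium/calmodulin-dependent protein kinase II (CaMKII), the most abundant kinase of the postsynaptic density, 3 of 4 were higher in C-titled libraries. Camk2a ranged from 42.54 to 591.1 CPM (median 286.3) in PV-titled and from 79.78 to 1285 (median 520.5) in C-titled libraries. The difference was -1.16 ± 0.11 (SE, log2; adjusted p = 1.4e-17), with 8 of 55 PV-titled libraries above the C-titled median. Camk2b was more even, at 246.1 to 750.8 CPM (median 563.3) in PV-titled and 541.7 to 1366 (median 1059) in C-titled libraries, and its difference was -0.93 ± 0.05 (SE, log2; adjusted p = 6.5e-38). No PV-titled library reached the C-titled median of Camk2b. Camk2d had -0.59 ± 0.05 (adjusted p = 1.9e-22). Camk2g had 0.02 ± 0.05 (adjusted p = 0.69), with medians of 81.53 and 75.67 CPM.

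Within each title Camk2a also differed by library-number range, and by more than any other member. Its medians were 157.6 CPM in the first and 384.8 in the second range of PV-titled libraries, and 404.2 and 908 in C-titled ones. By the digit that opens a library's name, 1 to 5, Camk2a medians were 110.6, 157.9, 185.7, 350.9 and 536.1 CPM in PV-titled libraries. In C-titled ones they were 398.2, 434.4, 403.9, 842 and 1005. Within a range the difference between titles was -1.25 in the first and -1.07 in the second. In PV-titled libraries Dlgap2 (50.49 and 103.3 CPM) and Dlg2 (24.67 and 48.28 CPM) were also about 2 times as high in the second range, whereas Nrgn had 753 and 708.2 CPM. The part of the range in the levels of single libraries was not tested, and the range was a term of the fits behind the values given here, except those within a range.

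The leucine-rich repeat adhesion genes were all higher in C-titled libraries. Lrrtm1, a neurexin ligand of excitatory synapses, ranged from 34.75 to 113.5 CPM with a median of 73.64 in PV-titled and from 63.45 to 207.6 with a median of 166.9 in C-titled libraries. None of 55 PV-titled libraries was above the C-titled median, and the difference was -1.15 ± 0.05 (SE, log2; adjusted p = 3.4e-41). For the rest of this group the differences were -0.71 ± 0.06 for Lrrtm3, -0.37 ± 0.12 for Lrrtm4, -0.31 ± 0.07 for Lrrtm2 and -0.26 ± 0.07 for Lrrc4, which encodes the netrin-G ligand NGL-2. Of these, Lrrtm2, Lrrtm4 and Lrrc4 did not pass when libraries were scaled by totals alone. Lrrtm4 did not pass without title number 3 either (adjusted p = 0.21). Within the first range Lrrtm4 (adjusted p = 0.28) and Lrrc4 (adjusted p = 0.088) did not pass, nor Lrrtm2 within the second (adjusted p = 0.065). Lrrtm4 shares 25.1% of its exon bases with Gm4409, so its count is uncertain.

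Baiap2, which encodes the membrane-bending adaptor IRSp53 (ENSMUSG00000025372, GRCm38 chr11:119942763-120006782, plus strand), ranged from 232.5 to 1074 CPM (median 343.4) in PV-titled and from 568.1 to 2024 (median 709.7) in C-titled libraries. All 58 C-titled libraries were above the PV-titled median, and the difference was -1.04 ± 0.06 (SE, log2; adjusted p = 5.6e-32). Of the other adaptors, Cnksr2, a scaffold of Ras signalling, had -0.92 ± 0.04 and Anks1b, an ankyrin repeat protein, -0.38 ± 0.04. Begain, a Dlg4-binding protein, had -0.19 ± 0.05 and did not pass with scaling by totals alone (0.01).

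Among the guanylate kinase scaffolds Dlg3, which encodes SAP102, ranged from 36.46 to 148.8 CPM (median 109.4) in PV-titled and from 61.69 to 278.4 (median 218.5) in C-titled libraries. No PV-titled library was above the C-titled median of Dlg3, and the difference was -0.97 ± 0.06 (SE, log2; adjusted p = 6.7e-28). Dlg4, which encodes PSD-95, had -0.54 ± 0.09 (adjusted p = 2.2e-08). Dlg2, which encodes PSD-93, had -0.24 ± 0.10 (adjusted p = 0.024), but -0.69 within the first range (adjusted p = 6.3e-05) and 0.19 within the second (adjusted p = 0.091). It did not pass with scaling by totals alone (-0.04, adjusted p = 0.72), nor with the libraries of title number 1 (adjusted p = 0.18) or 2 (adjusted p = 0.39) left out, where the title number is the digit that opens a library's name. Dlg1, which encodes SAP97, had 0.07 ± 0.04 (adjusted p = 0.076).

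Per kilobase of exon the guanylate kinase scaffolds ranked Dlg3, Dlg1, Dlg2, Dlg4 in both titles. Their median CPM per kilobase were 37.38, 12.65, 2.812 and 1.365 in C-titled and 18.73, 12.75, 2.558 and 0.9893 in PV-titled libraries. Dlg4 was thus the lowest of the 38 members per kilobase in both titles, below Nrxn2 at 2.032 and 1.927. Nrgn was the highest in both, at 1372 and 501. In C-titled libraries Baiap2 (142.2), Camk2b (116) and Camk2a (69.73) came next, and in PV-titled libraries Shank1 (76.45), Baiap2 (68.79) and Camk2b (61.73). The divisor was the union of all annotated exons, 13251 bases for Dlg4 and 1453 for Nrgn. Which of these exons were in use was not tested, so ranks between genes depend on annotated length too. Undivided, Dlg4 had medians of 18.08 CPM in C-titled and 13.11 in PV-titled libraries, and Homer3 had 17.13 and 17.36.

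The SAPAP and Homer scaffolds differed little. Dlgap1 was higher in PV-titled libraries by 0.14 ± 0.04 (adjusted p = 0.0019), with medians of 1096 and 1008 CPM, though by only 0.03 within the first range (adjusted p = 0.65) and 0.02 without title number 5 (adjusted p = 0.75). Dlgap2 had -0.13 ± 0.05 (adjusted p = 0.020), with -0.36 in the first range and 0.08 in the second (adjusted p = 0.27). With scaling by totals alone it was 0.07 (adjusted p = 0.29), and without title number 1, 2 or 4 the adjusted p was 0.38, 0.14 or 0.057. Dlgap3 (-0.09) and Dlgap4 (-0.07) did not pass. Homer2 had -0.22 ± 0.05 (adjusted p = 2.9e-05), with -0.02 under scaling by totals alone, and Homer3 had 0.03 ± 0.05 (adjusted p = 0.54). Homer3 shares 25.4% of its exon bases with Ddx49.

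Of the neuroligins, the postsynaptic partners of neurexins, 2 of 3 were higher in C-titled libraries. Nlgn3, found at both excitatory and inhibitory synapses, had -0.59 ± 0.11 (adjusted p = 4.9e-07), though -0.37 within the first range (adjusted p = 0.074). Nlgn2, the neuroligin of inhibitory synapses, had -0.43 ± 0.08 (adjusted p = 1.7e-06). It had -0.16 within the first range (adjusted p = 0.043), -0.66 within the second, and -0.33 without the libraries that stand apart. Nlgn1, the neuroligin of excitatory synapses, had -0.10 ± 0.09 (adjusted p = 0.26), and -0.15 (adjusted p = 0.0029) with the libraries that stand apart left out. An overlapping model, Gm21986, shares 41.2% of the exon bases of Nlgn3. The neurexins Nrxn3 (-0.29 ± 0.05, adjusted p = 2.2e-07) and Nrxn2 (-0.20 ± 0.08, adjusted p = 0.018) and the gephyrin gene Gphn (-0.16 ± 0.04, adjusted p = 2.0e-04) were slightly higher in C-titled libraries. Of these, Nrxn2 and Gphn did not pass with scaling by totals alone, nor Nrxn2 without title number 2 (adjusted p = 0.15) or 5 (adjusted p = 0.063). Gphn did not pass within the first range (adjusted p = 0.13), nor Nrxn2 within the second (adjusted p = 0.22). Within the first library-number range 8 members were higher in PV-titled libraries (41.0% of all genes) and 19 in C-titled ones (38.5%). Within the second these were 7 (43.4%) and 20 (41.7%). No member passed in opposite directions in the ranges, and the estimates of 6 differed in sign.

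Time of day was tested within each title by a 24 h cosine and sine together, with the amplitude given as the log2 distance from mean to peak. In PV-titled libraries 1 of 38 members (2.63%) passed, against 3.10% of 13047 genes. The median amplitude was 0.11 for the members and 0.11 for all genes. In C-titled libraries 12 members (31.6%) passed, against 27.0% of 13029 genes, a share near the background. Without the libraries that stand apart 2 members passed in PV-titled libraries (4.06% of all genes) and 10 in C-titled libraries (26.3% of members, 22% of all genes). Of the 12 members, 7 were among these 10, 5 were lost, and 3 others were gained.

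Sorbs2 was the member that passed in both titles. In PV-titled libraries its median was 439.6 CPM at ZT2 (range 391.5 to 588.7), 543.2 at ZT6 (436.9 to 664.5), 531.9 at ZT10 (311.2 to 866.7), 477.4 at ZT14 (393 to 967.7), 394.6 at ZT18 (364.2 to 511.8) and 387.6 at ZT22 (296.1 to 522.1). Its medians were highest at ZT6 and ZT10 and lowest at ZT18 and ZT22, and libraries of all times overlapped. The amplitude was 0.27 ± 0.06 with a peak at ZT9.33 (adjusted p = 0.0092), or 1.45-fold from trough to peak.

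In C-titled libraries the Sorbs2 medians from ZT2 to ZT22 were 184.5, 208.1, 223.2, 211.7, 186.8 and 169.5 CPM. Ranges at these times were 150.2 to 542.7, 167.5 to 307.8, 169.2 to 304.2, 183.3 to 247.6, 153.9 to 230.8 and 158.6 to 179.8. At ZT22 every library was below the lowest library at ZT14. The amplitude was 0.19 ± 0.05 with a peak at ZT8.67 (adjusted p = 0.020), and 0.21 with a peak at ZT10.9 (adjusted p = 2.4e-07) with those that stand apart left out. Amplitude and timing were not found to differ between titles (adjusted p = 0.85).

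**Figure D3:**
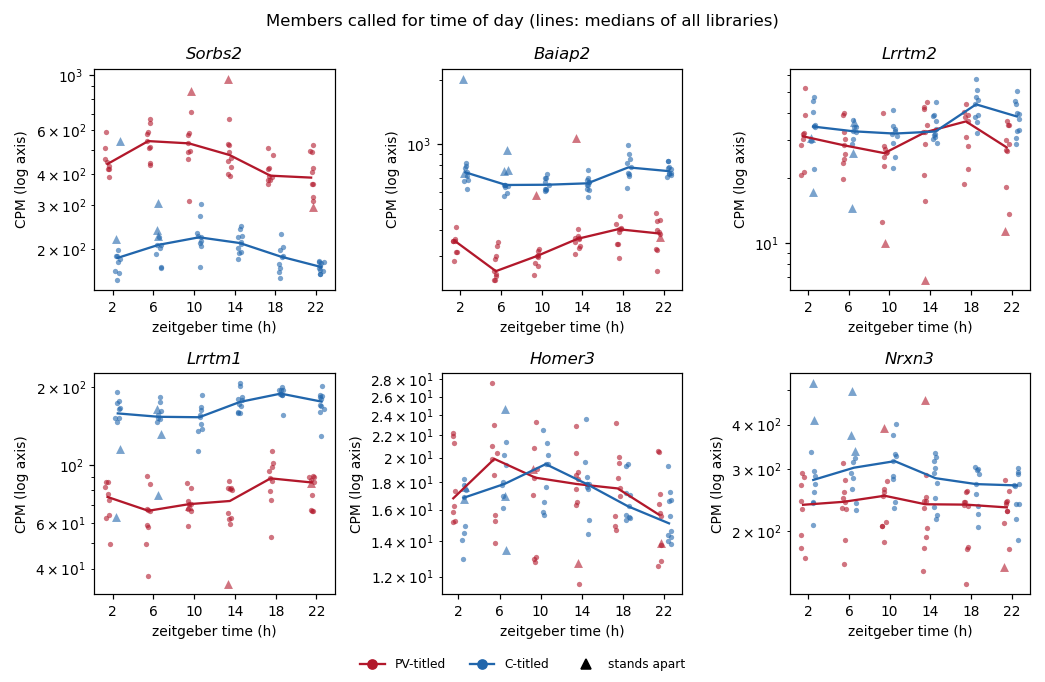
Level of 6 members in each library by zeitgeber time, in CPM on a log axis, for PV-titled (red) and C-titled (blue) libraries. Lines join the medians, with 8 to 10 libraries at each time, and triangles are libraries that stand apart. Sorbs2 is highest in the light phase in both titles, while Lrrtm1 and Baiap2 are highest in the dark phase.

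Baiap2 had the opposite timing. In C-titled libraries its medians from ZT2 to ZT22 were 740.2, 646, 647.7, 657.6, 780.3 and 749.5 CPM, with ranges of 618.7 to 2024, 576.8 to 935.6, 602.6 to 724.4, 568.1 to 761.3, 627.2 to 991.3 and 704.8 to 833.8. Libraries at ZT22 lay almost wholly above those at ZT10. The amplitude was 0.18 ± 0.05 with a peak at ZT22.9 (adjusted p = 0.017), and 0.16 at ZT20.7 (adjusted p = 2.1e-05) with those that stand apart left out. In PV-titled libraries the medians were 353.3, 256.02, 300.8, 362.2, 401.7 and 383.8 CPM, with an amplitude of 0.25 ± 0.07 and a peak at ZT17.8 (adjusted p = 0.053). In the same PV-titled libraries the summed pyramidal markers had medians of 1289, 1220, 1242, 1232, 1517 and 1758 CPM from ZT2 to ZT22, also highest at ZT18 and ZT22. The summed GABAergic markers had 1228, 1139, 1106, 1077, 1188 and 948.05 CPM. In C-titled libraries 4 of 7 pyramidal markers passed for time of day, and their sum had medians of 3028, 3121, 3282, 3083, 3618 and 3520 CPM. No marker of either list passed in PV-titled libraries, and the part of these cells in the profiles of Sorbs2, Baiap2 and the members below was not tested. The PV-titled value of Baiap2 passed without the libraries that stand apart, with the same amplitude of 0.25 and a peak at ZT19.5 (adjusted p = 1.8e-04).

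Promoter sequences are shown for Sorbs2 and Baiap2, and for 2 more members described below, Begain and Lrrtm3, which are shown because they held a match. Begain and Lrrtm3 did not pass in all C-titled libraries (adjusted p = 0.13 and 0.070), but did without those that stand apart. Each sequence is the stretch of 250 bases before a start site in RefSeq (GRCm38.p6), read 5′ to 3′ on the gene's strand. They were searched on both strands for 4 motifs bound by clock and cAMP-responsive factors. These were the E-box CACGTG, the related CACGTT, the cAMP response element TGACGTCA and the D-box TTATGTAA, none of which contains another. Capitals mark a match.
Sorbs2, chr8:45507538-45507787, plus strand, first of 3 starts: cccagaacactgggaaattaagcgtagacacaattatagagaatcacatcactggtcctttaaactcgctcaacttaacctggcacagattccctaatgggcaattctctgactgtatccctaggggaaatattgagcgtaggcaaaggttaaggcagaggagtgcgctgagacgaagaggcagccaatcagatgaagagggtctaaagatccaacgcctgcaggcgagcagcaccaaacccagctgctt
Baiap2, chr11:119942842-119943091, plus strand, the listed start: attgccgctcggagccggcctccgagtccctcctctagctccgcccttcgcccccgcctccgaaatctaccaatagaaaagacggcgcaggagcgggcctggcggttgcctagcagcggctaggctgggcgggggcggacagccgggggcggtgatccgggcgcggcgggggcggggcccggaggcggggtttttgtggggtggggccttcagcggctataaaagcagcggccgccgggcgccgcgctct
Begain, chr12:109068243-109068492, minus strand, first of 5 starts: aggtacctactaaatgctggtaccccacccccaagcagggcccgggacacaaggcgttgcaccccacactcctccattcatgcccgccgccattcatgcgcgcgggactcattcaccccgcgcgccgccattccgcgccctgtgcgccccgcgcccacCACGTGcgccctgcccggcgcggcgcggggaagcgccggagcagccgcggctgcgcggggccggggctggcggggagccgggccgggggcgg
Lrrtm3, chr10:64090256-64090505, minus strand, the listed start: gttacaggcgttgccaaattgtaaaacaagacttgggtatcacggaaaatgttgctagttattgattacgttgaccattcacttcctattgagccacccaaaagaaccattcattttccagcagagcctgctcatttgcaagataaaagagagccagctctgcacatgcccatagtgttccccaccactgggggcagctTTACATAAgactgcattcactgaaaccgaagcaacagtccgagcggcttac

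Of the 38 members 30 had at least 1 start in the RefSeq table, 57 in all. CACGTG was found before 5 of the 57 member starts, those of Begain, Dlg1 and Dlgap1, and before 6.02% of all 32851 starts. CACGTT was found before 3 of the 57, for Anks1b, Iqsec1 and Lrrc4 (3.85% of all starts). TTATGTAA was found before 2 of the 57, for Dlg1 and Lrrtm3 (0.819%). TGACGTCA was found for no member and before 1.55% of all starts. Sorbs2 and Baiap2 held none of these letters at any listed start, which says only that they are not in these windows. Of the 10 members that passed in C-titled libraries without the libraries that stand apart, 8 were in the table, and only Begain and Lrrtm3 held a match. For Begain the match lay before starts 1 and 2, whose windows overlap, and not before starts 3, 4 or 5.

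Lrrtm1 and Lrrtm2, adhesion proteins of excitatory synapses, were highest in the dark phase in C-titled libraries. For Lrrtm2 the medians from ZT2 to ZT22 were 34.53, 32.83, 32.06, 32.76, 43.72 and 38.44 CPM, with ranges of 17.15 to 47.23, 14.54 to 36.98, 22.29 to 41.32, 28.89 to 44.59, 32.25 to 57.45 and 28.65 to 50.31. The ZT18 libraries stood highest and overlapped those of every other time. The amplitude was 0.22 ± 0.06 with a peak at ZT19.1 (adjusted p = 0.0064), and 0.19 (adjusted p = 0.0086) with the libraries that stand apart left out.

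For Lrrtm1 the medians from ZT2 to ZT22 were 158.4, 153.7, 153.1, 175.4, 188.8 and 175.8 CPM. Its ranges were 63.45 to 190.99, 76.56 to 183.5, 113.3 to 185.7, 158.7 to 207.6, 155.9 to 200.6 and 129.9 to 201.1. The spread was widest at ZT2 and ZT6, where the lowest libraries, 4D and 5K, stand apart. The amplitude was 0.18 ± 0.05 with a peak at ZT17.8 (adjusted p = 0.011), and 0.13 (adjusted p = 0.0048) with the libraries that stand apart left out. In PV-titled libraries Lrrtm1 had a like amplitude, 0.18 ± 0.06 with a peak at ZT19.3, that did not pass (adjusted p = 0.13).

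Homer3 and Nrxn3 were highest in the light phase in C-titled libraries. Homer3, which links Shank proteins to metabotropic glutamate receptors, had medians of 16.83, 17.87, 19.45, 17.85, 16.23 and 15.08 CPM from ZT2 to ZT22, with ranges of 12.95 to 18.27, 13.46 to 24.69, 15.61 to 22.52, 14.39 to 23.63, 15.33 to 19.45 and 13.82 to 19.3. Libraries overlapped at all times. The amplitude was 0.14 ± 0.03 with a peak at ZT10.3 (adjusted p = 0.0095), and 0.14 without the libraries that stand apart. Nrxn3, a presynaptic partner of neuroligins and Lrrtm proteins, had medians of 278.95, 302.1, 315.3, 282.2, 271.5 and 269.2 CPM. Its ranges were 207.9 to 525, 229.7 to 499.3, 232.5 to 402.6, 215.9 to 333.4, 204.7 to 302.7 and 188.3 to 301.1. The median was highest at ZT10, and the highest libraries were at ZT2 and ZT6, the times of the C-titled libraries that stand apart. The amplitude of Nrxn3 was 0.16 ± 0.04 with a peak at ZT6.76 (adjusted p = 0.011), and 0.12 with a peak at ZT9.18 (adjusted p = 0.0010) with those that stand apart left out.

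Agap2 had the largest amplitude, and its calls rested on a few libraries. In C-titled libraries the median of Agap2 (ENSMUSG00000025422, GRCm38 chr10:127075284-127093169, plus strand) was 33.9 CPM at ZT2 (range 14.81 to 849.3), 29.18 at ZT6 (17.5 to 596.3), 24.57 at ZT10 (19.38 to 251.3), 24.64 at ZT14 (13.6 to 43.73), 28.47 at ZT18 (21.02 to 40.17) and 24.34 at ZT22 (18.25 to 35.29). Medians stayed close while single libraries at ZT2, ZT6 and ZT10 were many times higher. In PV-titled libraries the medians were 26.13, 33.58, 34.37, 32.6, 30.02 and 33.7 CPM, and the ranges were 16.18 to 43.35, 22.19 to 72.68, 18.95 to 233.96, 16.77 to 207.8, 8.931 to 74.98 and 15.28 to 73.33. There the high libraries lay at ZT10 and ZT14.

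In C-titled libraries the amplitude of Agap2 was 1.22 ± 0.24 with a peak at ZT4.49 (adjusted p = 4.3e-04). It was 0.27 (adjusted p = 0.16) when those that stand apart were left out. In PV-titled libraries it was 0.52 ± 0.17 with a peak at ZT12.1 (adjusted p = 0.15), and 0.21 without them (adjusted p = 0.66). Agap2 was the 1 member whose rhythm differed between titles (adjusted p = 0.012, passed by 0.559% of all genes), and the adjusted p was 0.98 once the libraries that stand apart were left out.

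Iqsec1 followed the same libraries. Its C-titled medians from ZT2 to ZT22 were 96.14, 89.81, 83.81, 85.9, 103.4 and 94.01 CPM, with ranges of 63.8 to 1038, 66.68 to 551, 76.92 to 270.4, 67.87 to 104, 79.47 to 109.7 and 75.23 to 105.9. As for Agap2, the medians moved little and the highest library fell from ZT2 to ZT10. The amplitude was 0.52 ± 0.15 with a peak at ZT3.94 (adjusted p = 0.017), and 0.03 (adjusted p = 0.92) with the libraries that stand apart left out.

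**Figure D4:**
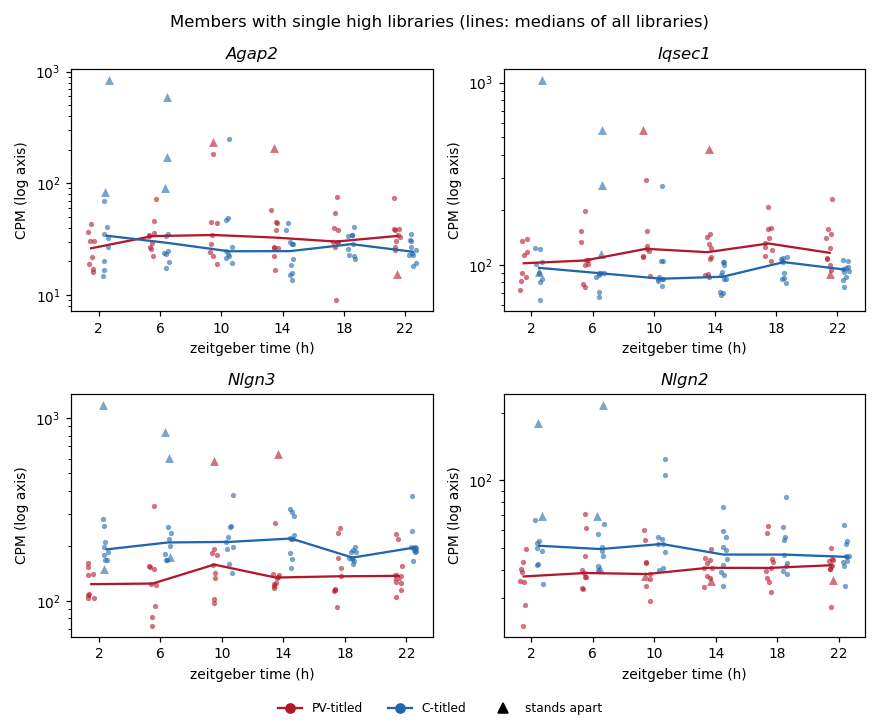
Level of Agap2, Iqsec1, Nlgn3 and Nlgn2 in each library by zeitgeber time, in CPM on a log axis, with lines through the medians (8 to 10 libraries at each time). Triangles mark libraries that stand apart. The highest C-titled values of Agap2 (849.3 CPM) and Iqsec1 (1038 CPM) are in the same ZT2 library, while the highest Nlgn2 value (216.3 CPM) is in a different library, at ZT6.

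Among the libraries that stand apart there were 2 sets of raised members, and members were lowered in them as well. In C-titled libraries 3F (ZT2), 3D (ZT6) and 3H (ZT6) and PV-titled libraries 1G (ZT14) and 1K (ZT10), the members at least 2 times the median of their title included Agap2, Iqsec1, Nlgn1, Nlgn3 and Lrrtm4 in each of these 5 libraries. Nlgn3 reached 1180, 840.5 and 603.1 CPM in the C-titled and 635.1 and 585.2 in the PV-titled libraries, against medians of 195.7 and 136.7. In C-titled libraries 4D (ZT2) and 5K (ZT6) the set included Nlgn2, Shank1, Shank3, Dlg4, Nrxn2 and Agap2 in both. Nlgn2 there reached 180.7 and 216.3 CPM against a median of 48.8. Members at or below 0.5 times the median of their title numbered 9 in 3F, 8 in 3D, 3 in 3H, 11 in 1G and 10 in 1K. They numbered 2 in 4D, 2 in 5K and 7 in PV-titled library 2L (ZT22), which had none raised.

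Some of the same members were raised in libraries that did not stand apart. They included Nlgn3, Agap2, Nlgn1 and Lrrtm4 in PV-titled 1I (ZT6), and Agap2 and Iqsec1 in PV-titled 5F (ZT10) and C-titled 3G (ZT10). Nlgn2, Nrxn2, Dlg4 and Shank1 were raised in C-titled 5G (ZT10), and Shank1 and Nlgn2 in C-titled 5C (ZT10). Agap2 was raised in C-titled 3J (ZT2) and PV-titled 2E (ZT22) and 3F (ZT18), and Nrxn2 in C-titled 4E (ZT14) and PV-titled 4E (ZT6). Outside the libraries that stand apart at most 4 members were at least 2 times the median in any library, and at most 4 were at or below 0.5 times. The libraries were set apart by their correlation over all genes, so more departures in them follow from that rule. The share of all genes that departed is not given here, so these counts say nothing particular about the members. In 3F, 3D and 3H Camk2a was 83.9, 79.78 and 230.7 CPM, against a median of 520.5. The nuclear transcript Malat1 was at 18898 and 6134 CPM in 4D and 5K, against at most 2934 in C-titled libraries that did not stand apart, and at 843.5, 486.2 and 692.7 in 3F, 3D and 3H. The share of reads assigned to no gene was 59.42% and 58.81% in 4D and 5K and 53.19% to 55.15% in 3F, 3D and 3H, with 51.9% to 54.87% in C-titled libraries that did not stand apart. PV-titled library 1G had the highest Malat1 of all, 24156 CPM, where PV-titled libraries that did not stand apart reached 18929. The part of RNA quality in these values was not tested.

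Of the other members that passed in C-titled libraries, Lrrtm4 (0.34 ± 0.10, peak ZT3.75, adjusted p = 0.020), Nlgn1 (0.26 ± 0.08, peak ZT4.92, adjusted p = 0.027) and Camk2b (0.12 ± 0.03, peak ZT15.1, adjusted p = 0.022) no longer passed without the libraries that stand apart. Their adjusted p values were then 0.42, 0.11 and 0.079. Camk2g (0.15 ± 0.05, peak ZT7.66, adjusted p = 0.032) still passed, at 0.14 (adjusted p = 0.022). Members that passed only without those libraries were Lrrtm3 (0.15, peak ZT23.5, adjusted p = 0.0069), Gphn (0.08, peak ZT7.92, adjusted p = 0.022) and Begain (0.09, peak ZT10.6, adjusted p = 0.032). The largest member amplitude was then 0.27, for Agap2, which did not pass.

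Title numbers run from 1 to 5, and leaving out 1 of them at a time removes a block of libraries of both titles. In C-titled libraries Lrrtm2 and Nrxn3 passed each time. Homer3 did not pass without number 4 (adjusted p = 0.10), Lrrtm1 without number 3 (adjusted p = 0.053), and Baiap2 without number 1 (adjusted p = 0.053) or 2 (adjusted p = 0.068). Sorbs2 did not pass in C-titled libraries without number 1, 2, 4 or 5, with adjusted p values of 0.057 to 0.070, and in PV-titled libraries without number 3 (adjusted p = 0.051) or 5 (adjusted p = 0.13). Camk2g passed only without number 3, and its other adjusted p values were 0.057 to 0.23. The amplitude of Sorbs2 kept between 0.19 and 0.30 in these fits of either title.

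**Figure D5:**
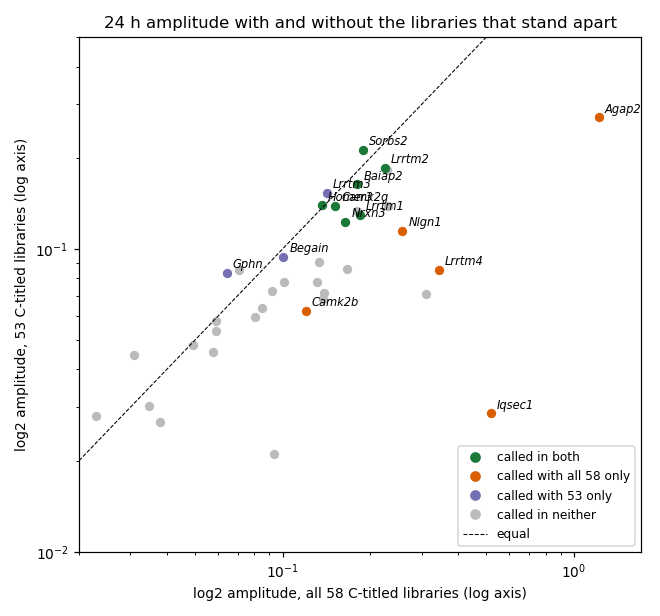
Log2 amplitude of each member in all 58 C-titled libraries (x axis) and in the 53 that do not stand apart (y axis), both on log axes, coloured by whether the member passed the test in each. Agap2 falls from 1.22 to 0.27 and Iqsec1 from 0.52 to 0.03, while Sorbs2, Lrrtm2, Baiap2 and Homer3 lie near the line of equal amplitude.

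Neither the Shank genes, nor the guanylate kinase scaffolds, nor Nrgn and Camk2a passed for time of day in either title. In C-titled libraries the amplitudes were 0.23 for Shank1 (adjusted p = 0.051), 0.13 for Shank2, 0.02 for Shank3, 0.09 for Nrgn and 0.13 for Camk2a (adjusted p = 0.63). Nrgn medians from ZT2 to ZT22 were 2047, 2081, 2187, 1849, 1925 and 1979 CPM. For Camk2a they were 456.7, 462.8, 525.2, 447.4, 743.9 and 698.1, with ranges as wide as 206.7 to 1250 at ZT14. An unadjusted p under 0.05 was found for 9 members in PV-titled libraries, where 17.2% of all genes had one, and for 21 in C-titled libraries, where 40.4% had one.

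No member differed between the sexes after adjustment in either title by edgeR or by DESeq2, against 0.0307% of all genes for PV-titled libraries and 0.184% for C-titled ones. At an unadjusted p under 0.05 there were 0 members in PV-titled libraries (2.77% of all genes) and 3 in C-titled ones (7.61% of all genes), a share near the background. These were Sorbs2 (male minus female -0.20, log2), Cnksr2 (-0.10) and Kalrn (-0.19).

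Other synaptic genes gave the surroundings of these members. Of 28 further genes of the postsynaptic density and spine 11 were higher in PV-titled libraries and 13 in C-titled ones, of 10 auxiliary subunits of AMPA and kainate receptors 4 and 5, and of 12 genes of the inhibitory postsynapse 5 and 7. Of 44 further adhesion and organizer genes 8 were higher in PV-titled libraries and 31 in C-titled ones. Over all genes these shares were 44.3% and 43.2%. The largest differences toward PV-titled libraries were Pclo, a presynaptic active zone scaffold (2.17 ± 0.07, log2), Dbn1, the spine actin-binding protein drebrin (1.99 ± 0.08), and Dmd, dystrophin (1.98 ± 0.06). Toward C-titled libraries they were Clstn1, calsyntenin (-1.42 ± 0.07), Slitrk1 (-1.35 ± 0.09) and the ephrin receptor Epha4 (-1.27 ± 0.04).

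For time of day 3 of the 28 further postsynaptic density and spine genes passed in PV-titled libraries and 7 in C-titled ones, and none and 10 of the 44 adhesion genes. None and 2 of the 10 auxiliary subunits passed, and none of the 12 inhibitory genes in either title. Over all genes 3.10% passed in PV-titled libraries and 27.0% in C-titled ones. Homer1, the third Homer gene, had amplitudes of 0.36 ± 0.06 with a peak at ZT21.7 in PV-titled (adjusted p = 2.0e-04) and 0.26 ± 0.05 at ZT22.6 in C-titled libraries (adjusted p = 4.0e-04). Synpo, the spine apparatus protein synaptopodin, had 0.40 ± 0.07 at ZT18.4 in PV-titled (adjusted p = 7.9e-04) and 0.30 ± 0.07 at ZT16.4 in C-titled libraries (adjusted p = 0.0037). Lzts3, a Shank-binding protein, had 0.27 ± 0.06 at ZT22 in PV-titled (adjusted p = 0.0077) and 0.23 ± 0.06 at ZT19.8 in C-titled libraries (adjusted p = 0.0055). Those 3 also passed in both titles without the libraries that stand apart. In C-titled libraries Flrt3, an adhesion protein, had 0.19 ± 0.04 at ZT22.6 (adjusted p = 6.6e-04).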

How the data were processed

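A single table, deposited by the authors, held whole-number read counts for each gene and library. Per the submitters' processing notes FastQC, HTSeq, DESeq2 and GRCm38 were used; the aligner, versions, annotation and strand setting were not found in the labels. Of 114 libraries in the labels 113 were used; 1 column was not used because the sex in its name differs from its title. Reads assigned to no gene were left out of tests. With R 4.3.3 and edgeR 4.0.16, counts were filtered by filterByExpr, scaled by TMM and tested by quasi-likelihood F tests with Benjamini-Hochberg adjustment over all genes (threshold 0.05). The title comparison had time, sex and library-number range as terms; rhythm used cosine and sine of 24 h with sex and range, and its difference between titles the products with title. glmTreat tested 2-fold. CPM are TMM-scaled; CPM per kilobase used the GENCODE vM21 exon union. DESeq2 1.42.0, other scalings, no filter and subsets of libraries were alternatives. Gene positions and names came from GENCODE vM21, promoters from RefSeq. Within prefix, time and sex no 2 libraries were copies.

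The members, gene lists and markers were chosen with earlier results of these data known. The rule for values was: lowest, median and highest library for the 6 members with the largest difference toward each title; values at each time for the 8 called members with the smallest p in each title and for members whose rhythm differed; of other synaptic genes, the 3 with the largest called difference in each direction and the 3 with the smallest called rhythm p in each title. Libraries that stand apart were defined after the data were seen. A gene that this rule names is not reported here.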

Additional observations from a re-analysis of the deposited data

Results flagged for a closer look

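Among values given by time of day under the rule for values, 13 were far from the others of their title and time. Distance was judged by the gap to the nearest library as a share of the range on the log2 scale. The profiles of Baiap2 in PV-titled libraries and of Nrgn and Camk2a in C-titled ones were outside that rule. Chance alone would pick out about 1 in 20 groups. Over all 38 members 77 of 456 groups (16.89%) held such a value, and 45 of these values were in libraries that stand apart.

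In C-titled library 3F at ZT2, which stands apart, Agap2 was 849.3, Iqsec1 1038, Baiap2 2024 and Sorbs2 542.7 CPM, all far above the others. C-titled library 3G at ZT10, which does not stand apart by the rule used, had Agap2 at 251.3 and Iqsec1 at 270.4 CPM. PV-titled library 1G at ZT14 had Agap2 at 207.8 CPM. Low values were 8.931 CPM for Agap2 in PV-titled library 2C at ZT18 and 14.54 CPM for Lrrtm2 in C-titled library 3D at ZT6. Lrrtm1 was low at 63.45 CPM in C-titled library 4D at ZT2, 76.56 in 5K at ZT6, 155.9 in 1J at ZT18 and 129.9 in 5A at ZT22. In the profiles outside the rule, Baiap2 was high in PV-titled libraries 1K at ZT10 (581.6 CPM) and 1G at ZT14 (1074), which stand apart. In C-titled libraries Nrgn was high in 5D at ZT18 (2484 CPM), and Camk2a was low in 3F at ZT2 (83.9).

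The rhythm of Agap2 differed between titles in the test of that difference (adjusted p = 0.01244), and the value was 0.9844 without the libraries that stand apart.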

How the results depend on the processing

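For the title comparison, with either library-number range, either sex, RLE scaling, no filter, DESeq2, each title number left out or the libraries that stand apart left out, 6 to 9 members were higher in PV-titled and 18 to 24 in C-titled libraries. Scaling by totals alone gave 12 and 14. Rhythm calls depended on which libraries entered. Subsets hold fewer libraries, and beyond that the cause was not tested.

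Estimates of the title difference changed sign as follows. With totals alone they were 0.067 for Dlgap2, 0.11 for Dlgap3, 0.13 for Dlgap4, 0.089 for Nlgn1, 0.041 for Gphn, 0.085 for Agap2 and 0.012 for Begain. In the first range they were -0.00328 for Homer3, 0.021 for Nlgn1 and 0.61 for Agap2, and in the second 0.19 for Dlg2, 0.080 for Dlgap2 and -0.10 for Camk2g. In females Homer3 was -0.030, and in males Agap2 was 0.00563. With a title number (the digit that opens the library's name) left out, Camk2g ranged from -0.033 to 0.078, Nlgn1 from -0.27 to 0.061, Iqsec1 from -0.021 to 0.59 and Agap2 from -0.59 to 0.53. The last 3 were farthest apart between number 1 and number 3, which hold 5 of the libraries that stand apart. Without those libraries Agap2 was 0.25. The C-titled amplitude of Iqsec1 ranged from 0.074 without number 3, with its peak over 6 h away, to 0.63. DESeq2 gave no adjusted p for Agap2 and Iqsec1 rhythm in C-titled libraries, nor for the title difference of Iqsec1.

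For rhythm in PV-titled libraries 3.10% of genes passed, with 0.153% in the first range, 0.307% in the second, 0.997% in females, 0.0613% in males, 1.2% with time as a factor, and 0.728% to 2.61% with a title number left out. Members passing numbered 2 with totals alone, with DESeq2 and without the libraries that stand apart, 0 in either range, in males and with time as a factor, and 0 to 2 with a title number left out. In C-titled libraries 27.0% of genes passed, with 2.9% in the first range, 10.2% in the second, 2.07% in females, 3.63% in males, 10% with time as a factor and 15.1% to 23.9% with a title number left out. Members passing numbered 0 in the first range, 4 in the second, 0 in females, 0 in males, 1 with time as a factor, and 6 to 11 with a title number left out, 6 being without number 3.

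For the difference in rhythm 0.559% of genes passed, with 0.283% by totals alone, 1.33% by DESeq2, 0% and 0.0153% in the first and second range, 0.0307% in females, 0.00766% in males, 0.13% with time as a factor, 0.138% without the libraries that stand apart and 0.0383% to 0.329% with a title number left out. Members passing numbered 2 by DESeq2, 0 in the ranges, in each sex, with time as a factor and without the libraries that stand apart, and 0 to 1 with a title number left out. For sex 0.184% of genes passed in C-titled libraries, with 0.299% by DESeq2, 0.698% without the libraries that stand apart, and 0.0614% to 0.161% with a title number left out. No member passed for sex in any setting run.

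The title number was not a term of the main fits and was used as a replicate block in place of the range in an alternative. The correlation of deviations was over 0.1 for 69.16% of same-number pairs in C-titled libraries, 47.37% in PV-titled ones and 46.94% across titles. Its median was 0.2336 for the same number, 0.1076 for other numbers of the same range and -0.0581 for all other numbers in C-titled libraries. These were 0.0919, 0.0869 and -0.0252 in PV-titled libraries, and 0.0836, 0.0708 and -0.0174 across titles. C-titled libraries of the same number were thus more alike than others, while the main fits treat libraries as independent. With the block, 9 members were higher in PV-titled libraries and 22 in C-titled ones (44.4% and 43.1% of all genes), Agap2 being 0.092. For rhythm 2 members passed with the block in PV-titled libraries (3.53% of all genes) and 10 in C-titled ones (25.7%), and 0.184% of genes and 0 members for its difference. In C-titled libraries Agap2 (adjusted p = 0.089), Iqsec1 (adjusted p = 0.21) and Lrrtm4 (adjusted p = 0.054) no longer passed with the block. Anks1b passed with it (adjusted p = 0.044).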
